A study of Mus musculus with 7 samples.

Results

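The genes described here encode the constant regions of the mouse antibody chains and the J chain that joins antibodies into polymers. They were taken by gene name from the deposited gene table and number 10 of its 54532 genes: the 8 heavy-chain constant genes Ighm, Ighd, Ighg1, Ighg2b, Ighg2c, Ighg3, Ighe and Igha, the kappa light-chain constant gene Igkc, and Jchain. The RNA came from spleen cells of reporter mice whose IL-17-producing cells carry green fluorescent protein (GFP), labelled IL-17GFP+ in every library. Spleen cells were freed of red cells by lysis and sorted on GFP, and the sorted fraction was labelled Th17, the T helper cells that make interleukin-17; no other sort marker is named. In the Periodontitis group (3 libraries, numbered 2, 3 and 4) a silk thread was tied around both lower first molars, which sets off inflammation and bone loss at the gum. In the Health group (4 libraries, numbered 1 to 4) mice of the same reporter genotype had no ligature. The ages and sexes of the mice, the time after ligature and the number of mice per library were not given in the sources used here, so that p-values below measure the spread between libraries, which may be technical.

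A B cell first makes the heavy chain of IgM from Ighm, and IgD from Ighd by alternative splicing of the same long transcript. After activation it can delete the DNA between its variable segment and a downstream constant gene, a process named class switching, and then makes IgG, IgE or IgA with the same antigen specificity. Each heavy-chain gene has separate terminal exons for a secreted and a membrane-bound form, and plasma cells, which secrete antibody, make very large amounts of the secreted mRNA. Heavy chains pair with a kappa or a lambda light chain, and the J chain links the tails of IgM and IgA. T cells do not make antibody, so these genes are not among those that a sort for Th17 cells is meant to collect.

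All 8 heavy-chain genes lie in a row on the minus strand of chromosome 12, which the deposited table places, on mm10, between 113422730, the start of Ighm, and 113254830, the end of Igha. In the direction of transcription the order is Ighm, Ighd, Ighg3, Ighg1, Ighg2b, Ighg2c, Ighe and Igha. Igkc lies at chr6:70726435-70726966 on the plus strand and Jchain at chr5:88519809-88527891 on the minus strand. The IgG subclasses differ most in their hinge, the flexible stretch between the antigen-binding arms and the stem. The hinge exons of the 4 IgG genes are shown because this stretch sets these similar genes apart, as read from GENCODE M21 transcripts (GRCm38, the assembly also called mm10). Capitals mark the in-frame cysteine codons, whose cysteines can link the heavy chains of 1 antibody to each other.
Ighg1, chr12:113329844-113329882, minus strand: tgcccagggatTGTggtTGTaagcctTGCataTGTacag
Ighg2b, chr12:113307261-113307326, minus strand: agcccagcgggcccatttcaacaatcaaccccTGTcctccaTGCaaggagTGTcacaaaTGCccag
Ighg2c, chr12:113288263-113288325, minus strand: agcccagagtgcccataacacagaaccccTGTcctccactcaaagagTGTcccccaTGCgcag
Ighg3, chr12:113360529-113360576, minus strand: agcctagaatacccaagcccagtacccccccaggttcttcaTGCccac
Ighg1 and Ighg2b each hold 4 such codons in this exon, Ighg2c holds 3 and Ighg3 holds 1. Over their secreted coding sequences Ighg2b and Ighg2c were 85.6% identical, against 73.9% to 75.5% for the other IgG pairs and 37.8% to 49.7% for pairs with Ighm, Ighd, Ighe or Igha. Of all stretches of 50 bases in its annotated exons, Ighg2c shared 5.49%, Ighg2b 4.15%, Ighg3 1.58% and Ighg1 0.393% with another gene, and none of the 10 genes shared any stretch of 100 bases. The read length was not given in the sources used here, so the counts of Ighg2b and Ighg2c may be less certain than the others.

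The last 60 coding bases of the secreted forms are shown because the J chain attaches there. Capitals again mark the in-frame cysteine codons, and both Ighm and Igha have TGC as the codon before the last one, which encodes the cysteine to which the J chain is known to bind. Ighg1, whose antibody is not joined into polymers by the J chain, has no cysteine codon in this stretch.
Ighm, chr12:113420870-113420929, minus strand: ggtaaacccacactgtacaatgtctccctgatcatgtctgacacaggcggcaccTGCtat
Igha, chr12:113258771-113258830, minus strand: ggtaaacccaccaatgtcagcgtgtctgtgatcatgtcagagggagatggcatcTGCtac
Ighg1, chr12:113328979-113329038, minus strand: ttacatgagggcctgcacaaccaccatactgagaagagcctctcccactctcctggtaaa

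Antibody mRNA was abundant in all 7 libraries of the sorted cells. The 10 genes together took 1.93% to 5.89% of reads in the Periodontitis libraries and 0.999% to 1.61% in the Health libraries, and the ranges did not overlap. By mean level over all libraries Igkc ranked 2, Igha 11, Ighm 41 and Jchain 54 among all genes in the table. Reads recovered from the deposited values numbered 13513806 to 16717942 in Periodontitis and 14161438 to 17891393 in Health.

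Several features differed between the libraries, some with a clean split by group and others with overlap. Summed FPKM was at least 475268 in each Periodontitis library and at most 379328 in each Health library, and genes with a read numbered 12226 to 17546 in Periodontitis, lowest in Periodontitis 4, and 16852 to 19721 in Health. Features under 200 bases took 1.40%, 36.7% and 24.2% of the summed FPKM in Periodontitis 2, 3 and 4, and 3.31% to 9.63% in Health. All 11 T cell markers were higher in Periodontitis, where they summed to 1947 to 4572 FPKM, against 283 to 648 FPKM in Health. All 8 Th17 markers were higher too, with 632 to 1058 FPKM in sum in Periodontitis and 28.1 to 44.8 FPKM in Health. Il17a, the gene whose reporter defined the sort, had 362, 269 and 136 FPKM, that is fragments per kilobase of gene scaled to library depth, in Periodontitis, against 3.76, 0, 1.13 and 0 FPKM in Health. All 13 macrophage markers were lower in Periodontitis, where they summed to 396 to 926 FPKM, against 5130 to 14245 FPKM in Health. All 11 neutrophil markers had a negative log2 fold change, and 4 of them were called lower (limma, adjusted p under 0.05, as below). The 11 summed to 5994 to 24487 FPKM in Periodontitis and 16763 to 27057 FPKM in Health. All 8 red-cell markers had a positive log2 fold change, and 3 of them were called higher. The 8 summed to 5499 to 17769 FPKM in Periodontitis and 2360 to 4168 FPKM in Health. Of all genes tested, 5.63% were called higher and 10.2% lower. Xist had 0.135 to 1.35 FPKM in Periodontitis and 52.1 to 72.5 FPKM in Health, while the Y-linked Ddx3y had 9.22 to 16.9 FPKM in Periodontitis and 0 in every Health library. The Periodontitis libraries thus had a male pattern and the Health libraries a female one, so that sex and periodontitis cannot be told apart for any value below. The part of these differences in the antibody genes was not tested.

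Mean levels of 8 of the 10 antibody genes were higher in Periodontitis, but they were uneven between libraries. Only Ighg1 passed the test over all genes (limma on log2(FPKM + 1), Benjamini-Hochberg adjusted p under 0.05), which makes 1 of 10 genes higher and 0 lower; of all 12999 genes tested, 5.63% were called higher and 10.2% lower. An unadjusted p under 0.05 was reached by 4 of the 10 genes and by 30.2% of all genes tested. The median log2 fold change was 1.32 over the 10 genes and -0.06 over all genes tested, and 6086 of all genes tested had a positive value. In 6 of the 10, namely Ighm, Ighg1, Ighg2c, Igha, Igkc and Jchain, every Periodontitis library lay above every Health library, as it did for 12.6% of all genes tested. The 10 genes are used by the same cell lineage, so they are not independent of each other. In such bulk samples a larger number of antibody-making cells and more antibody mRNA per cell cannot be told apart.

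**Figure D1:**
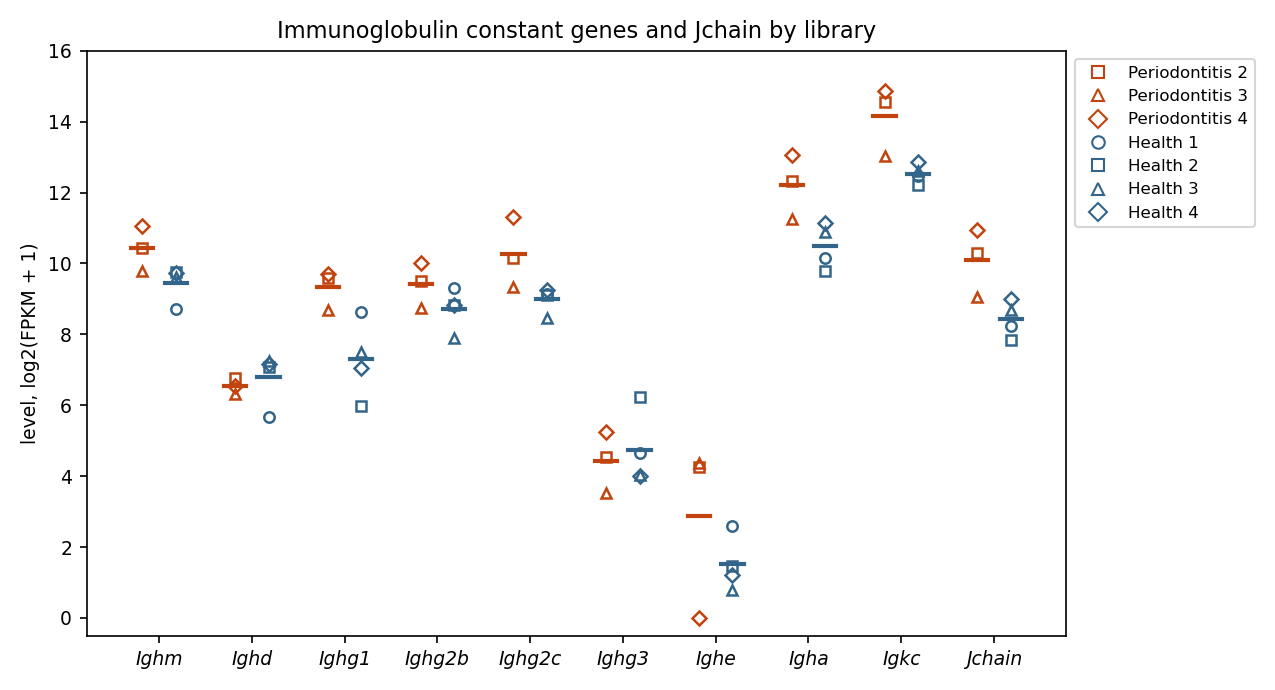
Level of each gene in each library as log2(FPKM + 1) on a linear axis, with Periodontitis in orange to the left of Health in blue, marker shapes for the library numbers and a bar for each group's mean. In 9 of the 10 genes Periodontitis 3 is the lowest of the Periodontitis libraries, the exception being Ighe, for which Periodontitis 4 is at 0.

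Ighm encodes the heavy chain of IgM, the first antibody class a B cell makes. It had 1389, 887 and 2116 FPKM in the Periodontitis libraries, against 422, 857, 785 and 841 FPKM in the Health libraries. The groups did not overlap, but Periodontitis 3 lay close to the highest Health libraries, and Health 1 lay far below the other Health libraries. The log2 fold change was 0.98 (SE 0.44, limma adjusted p = 0.175), which did not pass the test.

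Ighd, the IgD gene that mature resting B cells co-express with Ighm, did not follow it. It had 108, 78.5 and 91.6 FPKM in Periodontitis, against 50.1, 135, 152 and 144 FPKM in Health. Health 1 was again the lowest library, the other 3 Health libraries lay above all Periodontitis libraries, and the groups overlapped because of it. The log2 fold change was -0.26 (SE 0.40, limma adjusted p = 0.698).

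Ighg1, the gene of the IgG subclass made in many T cell-dependent responses of the mouse, alone among these genes passed the adjusted threshold. It had 774, 413 and 836 FPKM in Periodontitis, against 398, 62.0, 182 and 131 FPKM in Health. The lowest Periodontitis library stood just above Health 1, the highest Health library, and well above the other 3. The change was 2.04 on the log2 scale (SE 0.59, 95% interval 0.70 to 3.38, limma adjusted p = 0.0489). That call lay at the edge of the threshold: it was lost when any 1 library other than Health 1 was left out, with adjusted p between 0.0579 and 0.132 and log2 fold changes of 1.60 to 2.36, and without Health 1 the log2 fold change was 2.49 (adjusted p = 0.0184).

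Ighg2c and Ighg2b are the 2 most similar IgG genes, and IgG2c is the subclass that interferon-gamma favours in mice of the C57BL/6 strain. Ighg2c had 1147, 639 and 2519 FPKM in Periodontitis, against 563, 554, 352 and 603 FPKM in Health. Its groups did not overlap, by a small gap between Periodontitis 3 and Health 4, and the log2 fold change of 1.27 (SE 0.49, limma adjusted p = 0.120) did not pass, though it passed without Periodontitis 3 (1.74, adjusted p = 0.0420). Ighg2b had 724, 427 and 1034 FPKM in Periodontitis, against 635, 452, 237 and 456 FPKM in Health. Here Periodontitis 3 lay within the Health range, and the log2 fold change was 0.70 (SE 0.44, limma adjusted p = 0.320).

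Ighg3, the subclass typical of responses to carbohydrate antigens, had the lowest mean FPKM of the IgG genes in both groups. It had 22.1, 10.4 and 37.1 FPKM in Periodontitis, against 24.3, 74.3, 15.4 and 15.1 FPKM in Health. Health 2 stood apart at 74.3 FPKM, and the other Health libraries lay among the Periodontitis libraries. The log2 fold change was -0.30 (SE 0.60, limma adjusted p = 0.767), and it turned positive, to 0.20, without Health 2 and, to 0.15, without Periodontitis 3.

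Ighe encodes the heavy chain of IgE, the class that arms mast cells, and had the lowest mean FPKM of the 8 in both groups. It had 18.0, 19.7 and 0 FPKM in Periodontitis, or 423, 524 and 0 reads, against 4.98, 1.76, 0.716 and 1.33 FPKM in Health, or 131, 47, 18 and 31 reads. Periodontitis 2 and 3 thus lay above all Health libraries, while Periodontitis 4, the highest of all libraries for 7 of the 10 genes, had no read among 500800 heavy-chain reads, which allows a share of up to 0.000599%. A count of 0 there allows up to 0.133 FPKM, below every Health library, and covers counting error only. With Periodontitis 4 in the fit the log2 fold change was 1.36 (SE 1.01, limma adjusted p = 0.396); without it the value was 2.80 (adjusted p = 0.0115). The value was 0.67 without Periodontitis 2, 0.61 without Periodontitis 3, and 0.41 with limma voom on the recovered reads (adjusted p = 0.718, 0.729 and 0.911).

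Igha, the gene of IgA, the main antibody of mucosal surfaces, was the most abundant heavy-chain gene in every library. It had 5148, 2450 and 8539 FPKM in Periodontitis, against 1143, 885, 1899 and 2267 FPKM in Health. All Periodontitis libraries lay above all Health libraries, with Periodontitis 3 near Health 4. Its log2 fold change of 1.72 had an SE of 0.59 and a 95% interval of 0.37 to 3.07, and its adjusted p of 0.0880 (limma) missed the threshold, though it passed without Periodontitis 3.

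Igkc, the constant gene of the kappa light chain, had 24103, 8313 and 29805 FPKM in Periodontitis, against 5661, 4720, 6196 and 7448 FPKM in Health. The groups did not overlap, and Periodontitis 3 lay much closer to Health than the other Periodontitis libraries did. On the log2 scale the difference was 1.61 (SE 0.73, 95% interval -0.05 to 3.28, limma adjusted p = 0.178). A long non-coding gene, Gm30211, is annotated over Igkc on the same strand, so its count may be less certain than those of the other genes.

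Jchain had 1260, 533 and 1982 FPKM in Periodontitis, against 302, 230, 408 and 506 FPKM in Health. It too was higher in every Periodontitis library, with Periodontitis 3 just above Health 4. A log2 fold change of 1.67 resulted (SE 0.50, 95% interval 0.53 to 2.80, limma adjusted p = 0.0560), the second smallest adjusted p of the 10, and it passed without Periodontitis 3.

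**Figure D2:**
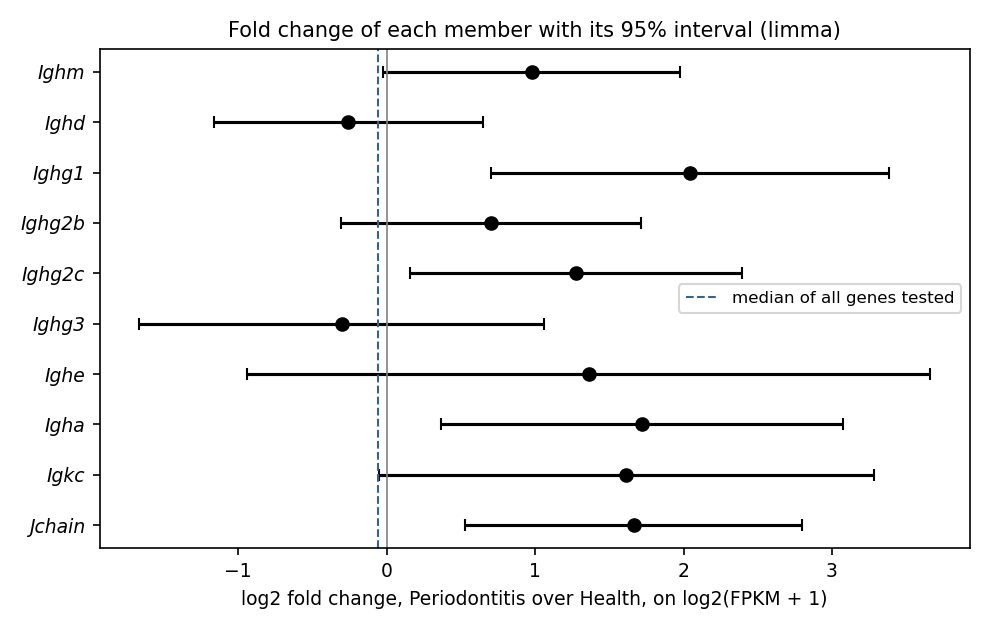
Log2 fold change of each gene, Periodontitis over Health, on the log2(FPKM + 1) scale, with its 95% interval from limma; the grey line is 0 and the dashed line the median of all genes tested (-0.06). The intervals of Ighg1, Ighg2c, Igha and Jchain lie above 0, and only Ighg1 passed the adjusted threshold.

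Ordered by mean FPKM in Periodontitis, Igkc (20740) and Igha (5379) came first, then Ighm (1464), Ighg2c (1435), Jchain (1258), Ighg2b (728), Ighg1 (674), Ighd (92.8), Ighg3 (23.2) and Ighe (12.5). In Health the order was Igkc (6006), Igha (1548), Ighm (726), Ighg2c (518), Ighg2b (445), Jchain (362), Ighg1 (193), Ighd (120.0), Ighg3 (32.3) and Ighe (2.20). In Periodontitis, the neighbours Ighm and Ighg2c, Ighg2c and Jchain, Jchain and Ighg2b, Ighg2b and Ighg1, and Ighg3 and Ighe differed by less than the larger of their SDs. In Health the same held for Ighg2c and Ighg2b, Ighg2b and Jchain, and Ighg1 and Ighd.

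Expressed as a share of the summed FPKM of the 8 heavy-chain genes, the isotype make-up was led by Igha in all 7 libraries. The share of Igha was 55.2%, 49.7% and 56.3% in Periodontitis, against 35.3%, 29.3%, 52.4% and 50.9% in Health. Health 3 and 4 resembled the Periodontitis libraries, while Health 1 and 2 were lower. The means were 53.7% ± 3.50 in Periodontitis and 42.0% ± 11.5 in Health (SD, n = 3 and 4), a difference of 11.8 points (exact two-sided permutation p = 0.171, 0.457 after Benjamini-Hochberg adjustment over the 8 shares). That difference was 7.55 points without Health 2. With 3 libraries against 4, the smallest p that this test can give is 0.0571, so no single share could pass 0.05.

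Ighm made up 14.9%, 18.0% and 13.9% of the heavy-chain FPKM in Periodontitis, against 13.0%, 28.4%, 21.7% and 18.9% in Health. The 3 Periodontitis values lay between the lowest Health library and the next. Ighd made up 1.16%, 1.59% and 0.603% in Periodontitis, against 1.55%, 4.46%, 4.18% and 3.22% in Health. The other 3 Health libraries lay above every Periodontitis library, and Health 1 lay within the Periodontitis range (difference -2.23 points, exact permutation p = 0.114).

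Among the IgG genes, Ighg1 took 8.29%, 8.38% and 5.51% in Periodontitis, against 12.3%, 2.05%, 5.01% and 2.93% in Health. Its highest and its lowest share were both in Health libraries, and the difference of 1.83 points had an exact permutation p of 0.629. Left-out libraries moved that difference between 0.65 points without Health 2 and 4.06 points without Health 1. Ighg2b took 7.76%, 8.67% and 6.81% in Periodontitis, against 19.6%, 15.0%, 6.53% and 10.2% in Health. Ighg2c took 12.3%, 13.0% and 16.6% in Periodontitis, against 17.4%, 18.3%, 9.72% and 13.5% in Health. Both overlapped between the groups (exact permutation p = 0.229 and 0.800).

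Ighg3 was the one share whose groups did not overlap. It was 0.237%, 0.212% and 0.244% in Periodontitis, against 0.751%, 2.46%, 0.426% and 0.340% in Health. The Periodontitis libraries were nearly equal, and the Health libraries varied widely above them. The difference of -0.76 points reached the smallest possible exact permutation p, 0.0571, and 0.457 after adjustment over the 8 shares; without Health 2 it was -0.27 points. Ighe took 0.193%, 0.399% and 0% in Periodontitis, against 0.154%, 0.058%, 0.020% and 0.030% in Health, with overlap.

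**Figure D3:**
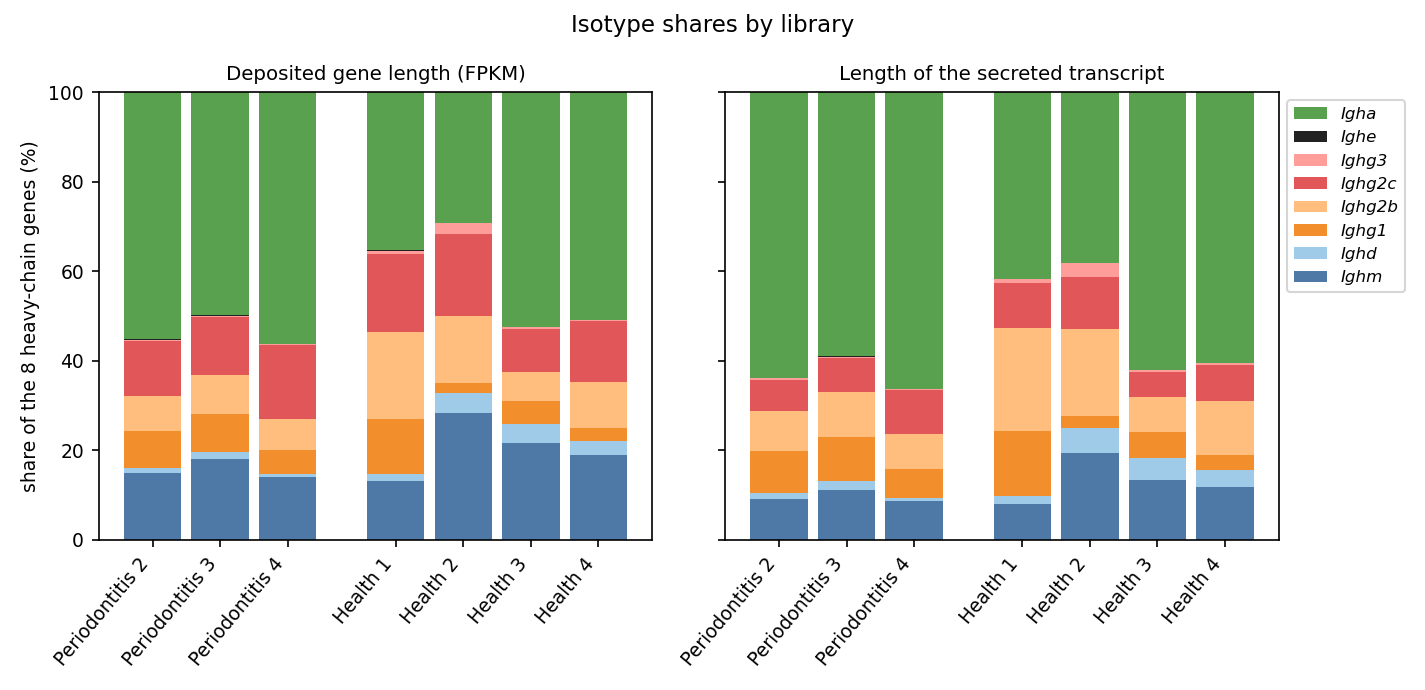
Share of each heavy-chain gene in the sum of the 8, in percent, for each library, with the Periodontitis libraries left of the Health libraries; the left panel uses FPKM and the right one reads divided by the length of the secreted transcript. Igha is the largest block in all 7 libraries in both panels, and its share spans 29.3% to 52.4% of FPKM in Health and 49.7% to 56.3% in Periodontitis.

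The class-switched genes, meaning all but Ighm and Ighd, together held 84.0%, 80.4% and 85.5% of the heavy-chain FPKM in Periodontitis, against 85.4%, 67.2%, 74.1% and 77.9% in Health. Health 1 lay within the Periodontitis range and the other 3 Health libraries were lower. The means were 83.3% ± 2.60 in Periodontitis and 76.2% ± 7.62 in Health (SD, n = 3 and 4; exact permutation p = 0.171). The difference of 7.10 points was 4.10 points without Health 2. By read counts the widest 95% interval (Wilson) of any share was 0.568 points, so counting error was small beside the spread between libraries.

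The order within the IgG genes depended on the gene length used. Deposited lengths take in the membrane exons and other annotated exons: 2678 bases for Ighg2b but 1326 for Ighg2c, whose secreted transcripts are 1114 and 1111 bases long. On the FPKM scale the log2 ratio of Ighg2c over Ighg2b was 0.66, 0.58 and 1.29 in Periodontitis, against -0.17, 0.29, 0.57 and 0.40 in Health. With secreted lengths it was -0.35, -0.43 and 0.27 in Periodontitis, against -1.18, -0.72, -0.44 and -0.61 in Health. Ighg2c thus led in 6 of 7 libraries on the first scale and in 1 of 7 on the second. The change of length moves this ratio by the same amount in every library, so the comparison of the groups cannot differ between the scales. All Periodontitis libraries lay above all Health libraries (exact permutation p = 0.0571, not adjusted). The gap between Periodontitis 3 and Health 3 was narrow, with 0.583 and 0.573 on the FPKM scale. With secreted lengths the Igha share was 63.9%, 59.0% and 66.4% in Periodontitis, against 41.7%, 38.2%, 62.1% and 60.6% in Health, still the first in each library.

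Ratios between chains do not move with the total of a library. Besides Ighg2c over Ighg2b, 5 ratios were examined, and of these only Ighd over Ighm separated the groups. Its log2 values were -3.68, -3.50 and -4.53 in Periodontitis, against -3.07, -2.67, -2.37 and -2.55 in Health. Every Periodontitis library lay below every Health library, with Periodontitis 4 the lowest. The difference was -1.24 (exact permutation p = 0.0571, the smallest possible, and 0.214 after adjustment over the 5 ratios). In linear terms, Ighd stood at 0.0780, 0.0885 and 0.0433 of Ighm in Periodontitis, against 0.119, 0.157, 0.193 and 0.171 in Health.

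Igkc over the summed heavy chains was 2.58, 1.69 and 1.96 in Periodontitis, against 1.75, 1.56, 1.71 and 1.67 in Health. Periodontitis 2 and 4 were above all Health libraries, and Periodontitis 3 lay among them (log2 difference 0.29, exact permutation p = 0.171, and a difference of 0.12 without Periodontitis 2). Jchain over the summed heavy chains was 0.135, 0.108 and 0.131 in Periodontitis, against 0.0933, 0.0760, 0.113 and 0.114 in Health. The pattern of the libraries was the same, with Periodontitis 3 within the Health range (log2 difference 0.35, exact permutation p = 0.171, and a difference of 0.23 without Health 2). Against the sum of Ighm and Igha alone, the classes that carry the J chain, the log2 difference was 0.17 (exact permutation p = 0.400), or 0.086 without Health 2 and 0.27 without Health 1.

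The lambda light chains, the alternative to kappa, made up 6.22%, 5.44% and 5.15% of light-chain constant FPKM in Periodontitis, against 5.85%, 9.08%, 9.64% and 9.08% in Health. Health 1 lay with the Periodontitis libraries and the other 3 Health libraries above them (log2 ratio to Igkc -0.61, exact permutation p = 0.114, adjusted 0.214). Of the 4 lambda genes, Iglc4 was at 0 in every Periodontitis library and in Health 2 and 4, with at most 0.576 FPKM in the other Health libraries, and Iglc1, Iglc2 and Iglc3 did not pass the test, with log2 fold changes of 1.46, 0.58 and 0.50. Iglc2 and Iglc3 are similar copies whose reads may be split between them.

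**Figure D4:**
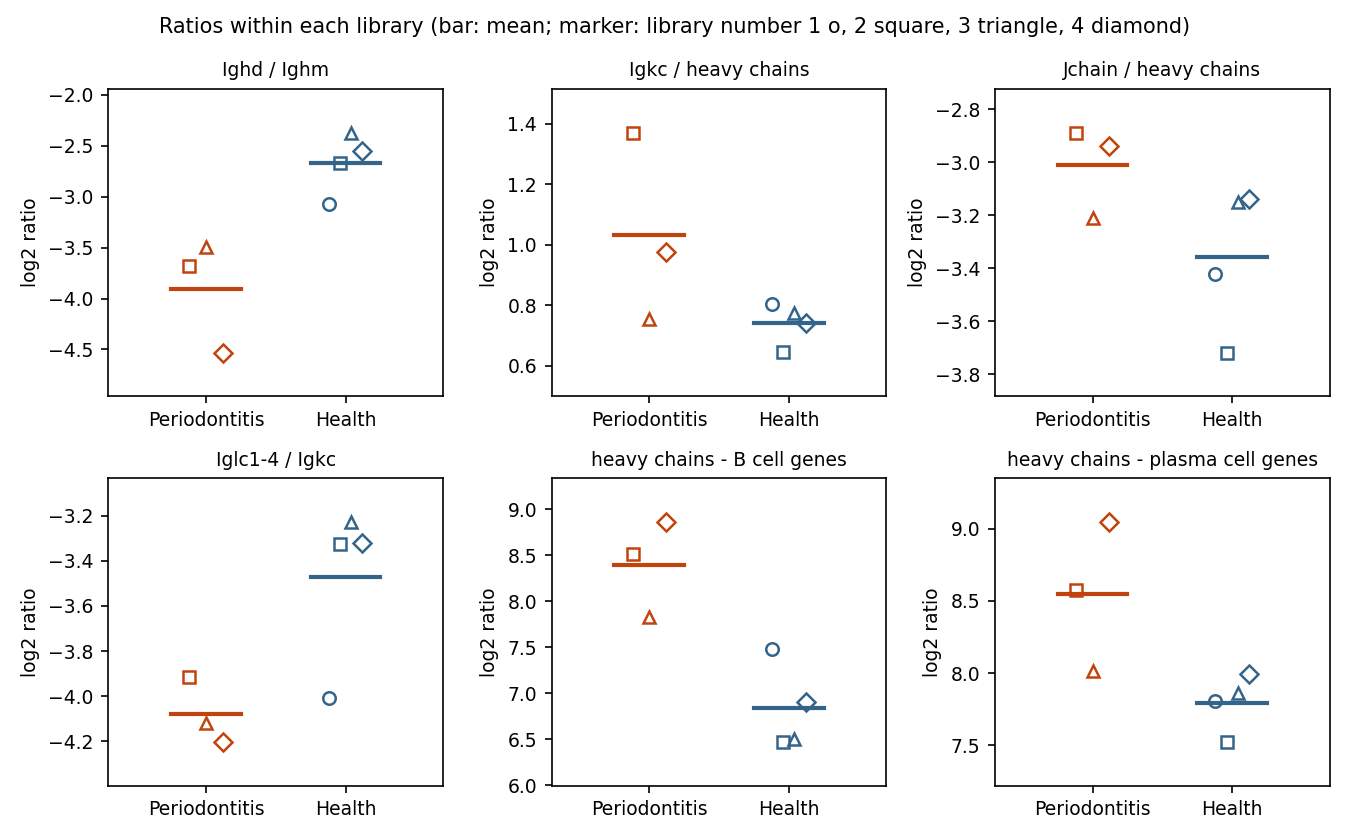
Log2 ratios within each library for 4 pairs of chains, and log2 of the summed heavy chains minus the mean log2(FPKM + 1) of the B cell and of the plasma cell genes; the bar is the group mean and marker shapes are library numbers. Ighd over Ighm is lower in all 3 Periodontitis libraries than in all 4 Health libraries, and the heavy chains relative to either list are higher.

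The antibody genes were next set beside genes of the cells that make them. Of 20 B cell identity genes, 1 was higher and 2 lower in Periodontitis, with a median log2 fold change of -0.25. These counts are near the shares over all genes tested, of which 5.63% were called higher and 10.2% lower. Bank1, a B cell adaptor protein, fell to 7.17, 6.01 and 10.2 FPKM in Periodontitis, against 28.5, 22.0, 21.1 and 22.4 FPKM in Health (log2 fold change -1.49, limma adjusted p = 0.00331), and Fcrl1, a B cell surface receptor, fell by 1.02 on the log2 scale. Blk, a kinase of B cells that mouse gamma-delta T cells also express, rose by 1.99. The list summed to 772 to 1231 FPKM in Periodontitis and 528 to 1230 FPKM in Health, with overlap.

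Of 19 tested plasma cell genes, 3 were higher and none was lower, with a median log2 fold change of 0.59. Over all genes tested, 5.63% were called higher and 10.2% lower. Sdc1, the plasma cell surface marker CD138, rose to 11.7, 9.56 and 25.3 FPKM in Periodontitis, against 2.52, 4.38, 3.11 and 4.83 FPKM in Health (log2 fold change 1.72, SE 0.35, limma adjusted p = 0.0117). Sec11c, a subunit of the signal peptidase of secretory cells, rose by 0.95, and Irf4, a transcription factor of plasma cells that Th17 cells also need, rose by 0.98. The list summed to 623 to 1024 FPKM in Periodontitis and 560 to 616 FPKM in Health, without overlap.

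The summed heavy chains, Igkc and Jchain were on average higher relative to both lists. This measure gives no level per cell and depends on the genes listed. Within the plasma cell list, log2 fold changes ran from -0.20 for Hsp90b1 to 1.72 for Sdc1. Those of Igha and Jchain were 1.72 and 1.67. The log2 of the summed heavy chains minus the mean log2(FPKM + 1) of the B cell genes was 8.51, 7.83 and 8.86 in Periodontitis, against 7.48, 6.47, 6.50 and 6.91 in Health. The groups did not overlap, and the difference was 1.56. Relative to the plasma cell genes it was 8.57, 8.01 and 9.05 in Periodontitis, against 7.80, 7.52, 7.86 and 7.99 in Health, with Periodontitis 3 almost level with Health 4 (difference 0.75, and 0.50 without Periodontitis 4). Igkc gave differences of 1.85 and 1.04 relative to the B cell and the plasma cell genes, and Jchain 1.90 and 1.10, with overlap for Jchain relative to the plasma cell genes alone. None of these differences passed 0.05 in the exact permutation test, which 3 libraries against 4 cannot reach.

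Of the genes for class switching, 1 of 18 tested was higher and 0 lower, against 5.63% and 10.2% of all genes tested. That gene was Batf, a transcription factor needed for switching in B cells and for Th17 cells, with 80.7, 36.9 and 55.5 FPKM in Periodontitis, against 20.2, 17.0, 19.3 and 17.6 FPKM in Health (log2 fold change 1.52, limma adjusted p = 0.00643). The pre-B cell genes that entered the test, Vpreb1 and Vpreb3, did not pass.

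Genes that bind or carry antibody moved the other way. Of 10 tested receptor and transport genes, 7 were lower in Periodontitis and none was higher, with a median log2 fold change of -2.46. Among all genes tested, 10.2% were called lower and 5.63% higher. Fcgr1, the high-affinity IgG receptor of macrophages, fell to 5.72, 2.46 and 3.05 FPKM in Periodontitis, against 101, 48.4, 49.5 and 31.2 FPKM in Health (log2 fold change -3.56, limma adjusted p = 0.00106). Fcgr4, an IgG receptor of macrophages and neutrophils, fell by 2.89, and Fcgrt, the neonatal Fc receptor that salvages IgG, fell by 3.01. Cd5l, a macrophage protein that binds circulating IgM, fell by 3.69 on the log2 scale, with 27.3 to 42.0 FPKM in Periodontitis, against 340 to 1041 FPKM in Health. The macrophage markers moved in the same direction as these genes, as given above; their part in it was not tested.

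Among themselves, Jchain and Igha varied most alike. After centring each gene, their log2(FPKM + 1) values differed by a root mean square of 0.11 over the 7 libraries, against 0.18 for Jchain and Igkc, 0.29 for Igha and Igkc, and 0.41 for Ighg2b and Ighg2c. Outside the immunoglobulin genes, the protein-coding genes most like Jchain were Gm8186 (0.27), Pcsk1 (0.30), a protease of secretory granules, and Derl3 (0.34), a component of the degradation of misfolded secretory proteins. Those most like Igha were Gm8186 (0.34), Rab26 (0.34), a GTPase of secretory vesicles, and Pcsk1 (0.36). Those most like Ighm were the globin gene Hbb-bs (0.17), the phosphatase gene Dusp10 (0.18) and Tnfrsf13b (0.21), which encodes the B cell receptor TACI. Pcsk1 had 3.66, 1.65 and 5.44 FPKM in Periodontitis, against 0.204, 0.138, 0.338 and 0.365 FPKM in Health, with Periodontitis 3 the lowest of its group as for Jchain and Igha. Rab26 had 0.0845, 0, 0.442 and 0.478 FPKM in Health. Both genes thus lay below the 1 FPKM added before the log in every Health library, which shrinks their fold changes. Their likeness to Igha, and that of Pcsk1 to Jchain, was measured on that scale only.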

How the data were processed

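RNA from 7 libraries (Periodontitis 3, Health 4) was analysed from 1 table of gene FPKM values that the authors deposited. The submitters' processing notes name mm10, HISAT2 2.0.5, featureCounts 1.5.0-p3 and DESeq2; strand, read length and annotation release were not given in the sources used here. Gene spans were the same as in GENCODE M21 for 98.0% of genes, and FPKM multiplied by the deposited gene length gave whole reads for 100% of values (within 0.001), from which read totals were taken. No 2 libraries of a group agreed within sampling noise (lowest chi-square per degree of freedom 27.3).

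The 12999 genes averaging 1 FPKM or more were tested on log2(FPKM + 1) with limma 3.58.1 in R 4.3.3 (variance trend, two-sided, Benjamini-Hochberg over all genes tested); fold changes on this scale understate those of low genes. The fit was checked on simulated data. Shares and ratios were compared by exact two-sided permutation over all 35 splits (scipy 1.17.1, Python 3.11.15), with 0.01 FPKM added to both terms of ratios. Alternatives were another pseudocount and filter, 4 scalings, limma voom on the recovered reads, library weights, leaving out each library, and a replicate block; secreted transcript lengths were added after seeing the data.

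The 10 genes and the other gene lists were chosen with earlier results of these data known. Named beside the 10 were up to 4 tested genes of each list with the smallest unadjusted p and markers at 0, Xist and Ddx3y, and the 3 genes most like Ighm, Igha and Jchain. Library numbers follow the library names. No batch was labelled.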

Additional observations from a re-analysis of the deposited data

Results flagged for a closer look

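Dixon's test was applied to 30 groups of 4 Health values (the levels, shares and ratios above). In 4 groups, the gap of a library to the nearest of the others was a larger part of the range than the 95% limit. For normal values chance gives about 1 in 20 such groups. The 30 groups share genes and libraries and are not independent, so the 4 do not measure an excess over chance. Health 1 was the low library in 3 of the 4. Ighm stood at 421.528 FPKM there and at 785 to 857 FPKM in Health 2, 3 and 4. Ighd stood at 50.0712 FPKM there and at 135 to 152 FPKM in Health 2, 3 and 4. The log2 ratio of lambda constants to Igkc was -4.20 to -3.92 in Periodontitis, -4.0085 in Health 1 and -3.32 to -3.23 in Health 2, 3 and 4. Health 2 was high for Ighg3, at 74.2856 FPKM, while Health 1, 3 and 4 had 15.1 to 24.3 FPKM. Health 1 also had the highest summed macrophage markers, 14245 FPKM; the part of this in its antibody levels was not tested.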

How the results depend on the processing

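The number of the 10 genes called higher, 1 as reported, was 0 with a pseudocount of 0.1, with no filter, with the same FPKM total per library, with the same total of genes other than immunoglobulin, and with library weights; it was 2 with a filter at 5 FPKM, 4 with the same total without features under 200 bases, and 4 with limma voom on recovered reads, these 4 being Ighg1, Igha, Igkc and Jchain in both. It ranged from 0 to 3 when each library was left out, the 3 being Ighg2c, Igha and Jchain without Periodontitis 3. Quantile normalization gave 1, which was Igha in place of Ighg1. The adjusted p of Ighg1 ranged from 0.0174 to 0.132. The replicate block, with library numbers that did not pair the samples (correlations -0.047 to 0.037), gave Ighg1 a log2 fold change of 2.49 (limma adjusted p = 0.0454) and 1 call. Scaling to the same total moved the median of all genes by -0.38, and 13.3% of calls were then higher, against 35.7% as reported; with immunoglobulin left out of the total these were -0.31 and 16.3%. Relative to the shift, the median of the 10 genes was 1.32 and 1.30. Taking off the shift largely undoes a scaling by totals, so these values are no separate support. With quantile normalization, which does not move all genes alike, that median was 0.95.

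The log2 fold change of Ighg3 ranged from -0.71 to 0.20 when each library was left out. The difference in the Ighg2c share ranged from -2.46 to 0.42 points and was 0.095 with the replicate block. The difference in the class-switched share was -1.07 points with Igkc in the denominator, where that in the Igha share was 1.97 points. The other shares, ratios and list differences kept their direction in the alternatives run. edgeR was not run because the values are FPKM, and voom used read totals without TMM. The causes were not tested. The number of libraries limited every test.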
